A study of Caenorhabditis elegans with 39 samples.

Results

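The comparison set 5 small RNA libraries of the Caenorhabditis elegans genotype named Alg1E against 5 of N2, 1 per genotype at each of 21, 22, 23, 24 and 25 h. These are 10 of the 39 libraries of a series that follows 3 genotypes hourly from 18 to 30 h, and all 437 miRNAs of the count table were considered. N2 is the standard wild type. The labels name N2 as the background of Alg1E too and present Alg1E as a mutant of the Argonaute ALG-1. They do not spell out the letter E, and the mutation cannot be checked from miRNA counts. Synchronized L1 larvae, the stage in which larvae hatch, were plated and grown at 25 degrees, whole bodies were collected, and total RNA was used. A lower level can therefore mean fewer cells that make a miRNA or less of it per cell, which cannot be told apart. No replicate number or culture is given. In tests that pair the libraries by hour, the spread behind a p-value is that of the genotype difference from hour to hour. In the unpaired exact permutation tests it is that between libraries of successive hours. Either spread may be technical.

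A miRNA is cut from a hairpin precursor as a duplex of a 5p and a 3p arm. An Argonaute such as ALG-1 keeps one arm as the guide that finds target mRNAs, and the other, passenger arm is usually discarded. In C. elegans larvae, miRNAs of the lin-4 and let-7 families act as timers that move cells from one larval stage to the next, and let-7 itself comes up late. Here the arm of a hairpin with fewer reads in the 8 N2 libraries outside 21 to 25 h is called minor and the other major, so that the libraries compared do not choose it.

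The 5 N2 libraries held 3529334 to 4292391 miRNA reads and the 5 Alg1E libraries 1146950 to 2413835, so low miRNAs are counted less precisely in Alg1E. Reads that fell in no annotated feature made up 34.7% ± 7.84 of all reads in N2 and 54.8% ± 8.70 in Alg1E (SD, n = 5 each), higher in Alg1E at 5 of 5 hours. The two-sided exact permutation p was 0.00794 and the exact sign-flip p over the 5 hours as pairs 0.0625, in each case the smallest the design allows. The part of this difference in the results below was not tested. Levels are given as CPM, the reads of a miRNA relative to all miRNA reads of its library, after scaling with TMM (trimmed mean of M-values), and each row of 5 values runs from 21 to 25 h. Log2 differences are Alg1E minus N2 from an edgeR fit with the hour as a factor, and a miRNA is called when its adjusted p is under 0.05 over the 237 miRNAs tested.

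Alg1E differed from N2 over most of the miRNAs tested, and the direction followed the arm. Of 237 miRNAs, 144 were called (60.8%), with 80 higher (33.8%) and 64 lower (27%) in Alg1E. More than 2-fold differences numbered 63 higher (26.6%) and 32 lower (13.5%). Levels of the 2 genotypes did not overlap for 116 miRNAs (48.9%), with Alg1E above for 68 (28.7%) and below for 48 (20.3%). Among 94 minor arms, 72 were called higher and 2 lower, with a median log2 difference of 1.5. For the 128 major arms the counts were 5 higher and 58 lower, with a median of -0.50, while the median over all 237 was -0.0014. A minor arm can pass the filter on low counts through Alg1E alone. With only miRNAs that averaged at least 10 reads in the 8 N2 libraries outside these hours, a setting added after the data were seen, 67 of 92 minor arms were higher and 3 lower (median 1.38), and of 131 major arms 6 were higher and 51 lower (median -0.49).

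**Figure D1:**
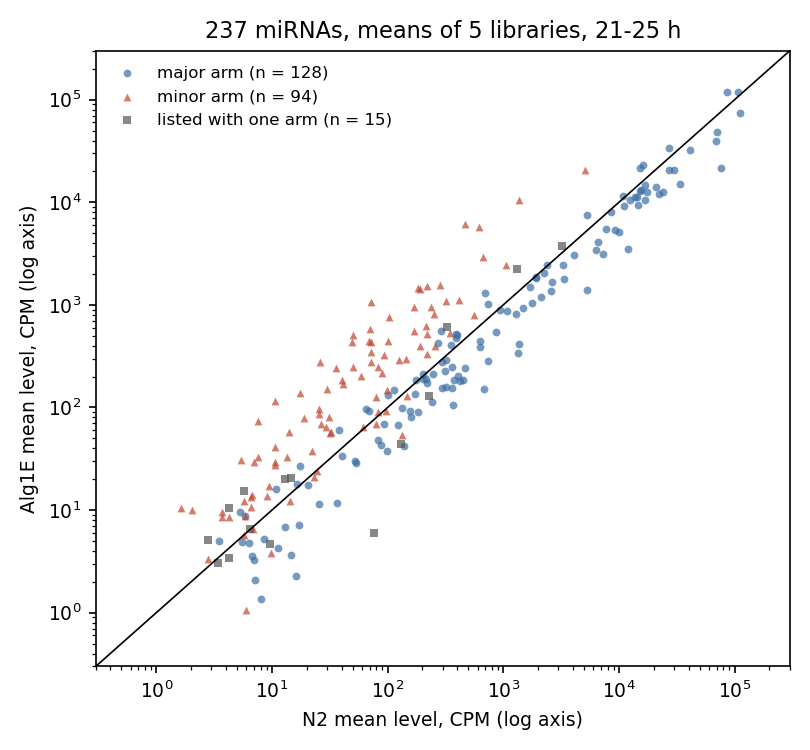
Mean level of each of 237 miRNAs in 5 N2 (horizontal) and 5 Alg1E libraries (vertical), both in CPM on log axes, marked by arm; the line is equality. Most minor arms lie above the line (72 of 94 called higher), and most major arms lie on or below it (58 of 128 called lower).

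The direction for minor arms held under each of the 3 other scalings tried, and the size and calls of the major arms moved with the scaling. The median of all miRNAs moved by -0.22 with RLE (relative log expression) size factors, by 0.23 with total counts and by 0.52 with TMM computed from major arms. The split of calls was then 67 higher to 75 lower, 92 to 39 and 106 to 23. With TMM from major arms, 79 minor arms were higher and 2 lower (median 2.02). That scaling sets the major arms near 0 by its construction, and 21 of them were higher and 19 lower, with a median of 0.02. The direction of a decrease of a major arm by about 0.52 log2 units or less thus depends on the scaling. Calls of larger decreases can depend on it too, since 58 major arms were called lower in the fit reported. miR-37-3p (-1.0), for example, lost its call with total counts and with TMM from major arms.

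The largest increases were all minor arms, and their levels in Alg1E lay far above every N2 library. miR-239a-3p was at 87.7, 63.0, 35.9, 60.3 and 116 CPM in N2 and at 1416, 1710.5, 1191, 452 and 548 CPM in Alg1E (log2 3.80, SE 0.478, edgeR adjusted p = 0.000445). Its lowest Alg1E library, of 24 h, held several times the highest N2 level. The other arm, miR-239a-5p, a miRNA studied in stress and lifespan, was not called (0.03).

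miR-52-3p comes from a hairpin whose 5p arm is among the most abundant miRNAs and belongs to the mir-51 family, which embryos need. It was at 468, 514, 452, 471 and 438 CPM in N2 and at 4868, 6333, 6854, 4929 and 7682 CPM in Alg1E (log2 3.69, SE 0.197, edgeR adjusted p = 9.02e-06). In N2 it hardly varied from hour to hour, and all 5 Alg1E libraries were above the 5 N2 libraries. miR-53-3p, miR-55-5p and miR-56-5p, minor arms of the same family, differed by 3.23, 2.99 and 3.19. miR-53-3p averaged 7.52 CPM in N2 and 73.4 in Alg1E, so it reached the mean of 10 CPM required of a named miRNA only through Alg1E. miR-52-3p, compared with miR-53-3p as a near-identical miRNA, had 47.4 to 130 times its reads in the 10 libraries. The separate value of miR-53-3p is therefore uncertain. miR-56-5p was at 619, 684, 693, 562 and 527 CPM in N2 and at 6961, 6001, 5998, 4159 and 5354 CPM in Alg1E, again with no overlap.

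Minor arms from hairpins of known tissue or function were among the 12 largest increases as well. miR-60-5p lies opposite miR-60-3p, a miRNA of the intestine. It was at 8.70, 7.59, 5.80, 17.5 and 13.5 CPM in N2 and at 131, 147, 129, 80.7 and 90.6 CPM in Alg1E (log2 3.51, SE 0.405, edgeR adjusted p = 0.000303), from 20 to 59 reads per N2 library and 133 to 347 per Alg1E library. miR-57-3p, from a hairpin that acts in posterior patterning, differed by 2.92. miR-80-5p, opposite a relative of the fly miRNA bantam, was at 1171, 1273, 1490.1, 1535 and 1436 CPM in N2 and at 10199, 8926, 10209, 13067 and 10446 CPM in Alg1E (log2 2.93, SE 0.158, edgeR adjusted p = 9.02e-06). It was the most abundant of the 12 in Alg1E. The others were miR-72-3p (3.44), miR-45-5p (3.38), miR-87-5p (3.07) and miR-73-5p (2.92). miR-44-5p, compared with miR-45-5p as a near-identical miRNA, had 1.57 to 6.49 times its reads in the 10 libraries. How far reads were shared between these 2 arms was not tested. All 12 were called in each of the 15 alternative settings run, which include the filter on N2 reads.

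Summed over the 94 hairpins with both arms tested, minor arms held 1.86, 1.70, 1.31, 1.52 and 1.39% of the reads in N2 and 8.46, 7.46, 7.62, 8.87 and 8.18% in Alg1E. No Alg1E library came near an N2 library. The means were 1.55% ± 0.226 and 8.12% ± 0.588 (SD, n = 5 each), a difference of 6.56 points or 5.22 times (two-sided exact permutation p = 0.00794, higher at 5 of 5 hours). With the hours as pairs the exact sign-flip p was 0.0625, the smallest 5 pairs allow. Alg1A, the other mutant of the series, held 1.80 to 2.27% at the same hours. Outside these hours the Alg1E mean was 8.71% at 18 to 20 h and 7.88% at 26 to 30 h, against 1.71% and 1.59% in N2.

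**Figure D2:**
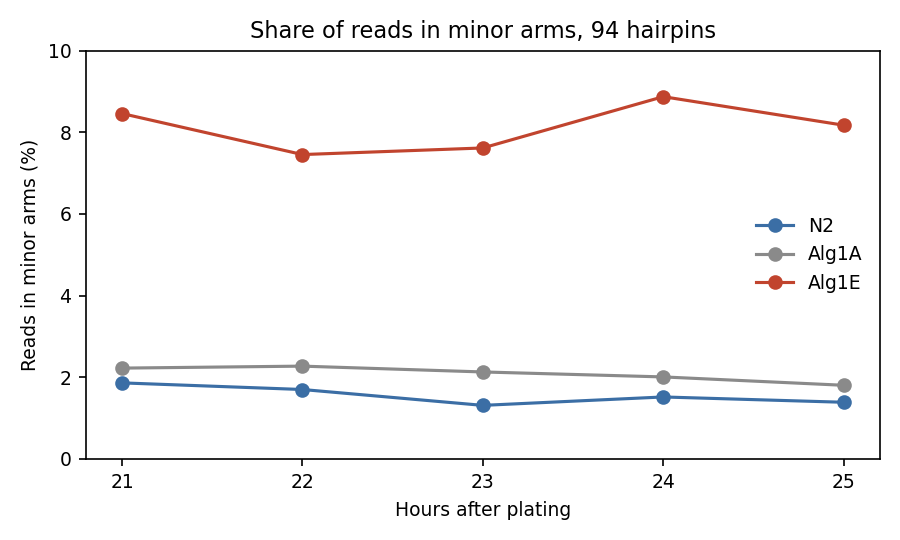
Share of reads in minor arms (%, vertical, from 0) of 94 hairpins by hour (horizontal), 1 point per library, lines joining libraries of a genotype. The 5 Alg1E points lie between 7.46 and 8.87%, above all N2 and Alg1A points, which lie at or under 2.27%.

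Dividing the minor by the major arm of the same hairpin cancels any scaling of the library. Over the 93 hairpins that averaged at least 10 reads in each arm, this arm ratio changed by a median of 2.0 log2 units, 4.0-fold. limma called it higher for 74 hairpins (79.6%) and lower for 1 (1.08%) at an adjusted p under 0.05, and it was higher at 5 of 5 hours for 72. The minimum was averaged over both genotypes, so a minor arm could pass through Alg1E alone. With the minimum set on the 8 N2 libraries outside these hours instead, 70 of 92 hairpins were called higher and 1 lower, with a median of 1.96. The shift did not belong to one arm. Where the 5p arm is minor (57 hairpins) the median was 2.13 with 49 called higher, and where the 3p arm is minor (36 hairpins) it was 1.87 with 25 called higher. It was also similar for hairpins outside genes (52, median 2.06) and inside introns or exons (40, median 1.95), as the WBcel235 annotation, the same assembly as ce11, places them. The change was smaller for hairpins whose arms were already closer in N2 outside this window (Spearman rho -0.51 across 93 hairpins, given as a description since hairpins share libraries). In 4 groups of 23 or 24 hairpins, from the lowest to the highest starting ratio, the medians were 2.36, 2.63, 2.02 and 1.06. A hairpin with a low starting ratio could enter these 93 through a high minor arm in Alg1E. The filter alone can therefore give such a relation, which was not computed with the minimum set on N2.

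In the mir-52 hairpin the minor arm miR-52-3p was at 0.396, 0.474, 0.347, 0.452 and 0.437% of the major arm in N2 and at 5.91, 8.79, 10.04, 6.07 and 11.1% in Alg1E (log2 4.28, SE 0.297, limma adjusted p = 2.11e-05). In the mir-56 hairpin the minor arm miR-56-5p was at 2.90, 3.37, 2.01, 2.79 and 3.81% of the major arm in N2 and at 47.4, 70.6, 77.7, 23.1 and 45.4% in Alg1E (log2 4.06, SE 0.368, limma adjusted p = 3.29e-05). In the Alg1E libraries of 22 and 23 h the 5p arm of miR-56 thus came closest to the level of its 3p arm. The next largest changes were miR-60 (3.90), miR-70 (3.85), miR-237 (3.83) and miR-57 (3.82), each higher at 5 of 5 hours. In miR-237, a relative of lin-4, the minor arm stood at 1.62% ± 0.809 of the major arm in N2 and at 22.3% ± 9.38 in Alg1E (SD, n = 5 each).

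Arms changed places in the mean of a few hairpins. The minor arm exceeded the major arm for 5 hairpins in Alg1E and for 1 in N2. These 5 were chosen after their values were seen, and of them miR-240 and miR-1830 were called. miR-240 had a minor arm at 39.1, 34.2, 19.2, 18.6 and 23.4% of the major arm in N2 and at 249, 339, 216, 184 and 154% in Alg1E, above 100 in every Alg1E library (log2 3.10, limma adjusted p = 3.29e-05). In miR-1830 the minor arm was at 109% in the N2 mean already and at 241% in Alg1E, and for miR-360, miR-797 and miR-2953 the ratio was not called.

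With arms named by N2 reads, miR-250 went the other way, and which of its arms is the guide was not tested. Its 3p arm, listed with the mir-2 family, was at 24.4, 31.003, 29.4, 59.0 and 27.6% of the 5p arm in N2 and at 16.3, 12.03, 19.3, 17.8 and 18.2% in Alg1E, lower at 5 of 5 hours (log2 -0.98, limma adjusted p = 0.0167). The major arm miR-250-5p was higher in Alg1E (log2 0.93, SE 0.189, edgeR adjusted p = 0.00418), and miR-250-3p was not called (-0.04). The ratio lost its call without the libraries of 22 h (-0.88, limma adjusted p = 0.067) or of 24 h (-0.79, limma adjusted p = 0.0606).

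Taking both arms of a hairpin together, 44 of 94 hairpins had a higher minor arm with no call for the major arm, and 27 had a higher minor and a lower major arm. Another 12 had only the major arm called, lower. Both arms were lower in 2 hairpins and higher in 1, 1 had only the major arm higher, and 7 had neither arm called.

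**Figure D3:**
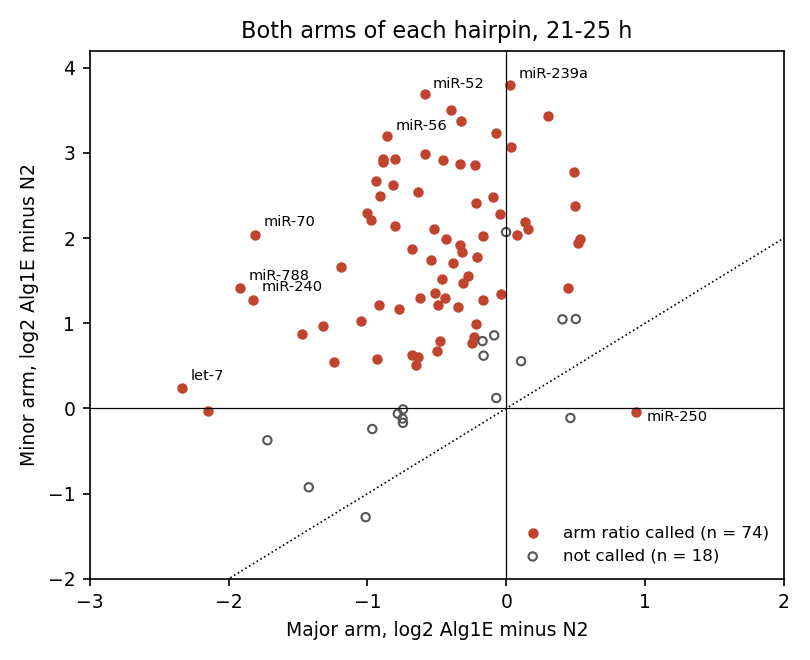
Log2 difference (Alg1E minus N2) of the major arm (horizontal) and the minor arm (vertical) of 92 hairpins with both arms tested and an arm ratio; filled points have an arm ratio called by limma, and the dotted line marks equal change of both arms. Nearly all points lie above that line, and miR-250 is the called hairpin below it.

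The largest decrease was in miR-799, listed with a single arm, whose hairpin is intergenic on chromosome X from 8600643 to 8600735 (- strand). It was at 57.7, 40.2, 97.7, 70.4 and 112 CPM in N2 and at 6.42, 6.73, 5.76, 1.82 and 8.88 CPM in Alg1E (log2 -3.63, SE 0.372, edgeR adjusted p = 0.000189). The Alg1E libraries counted only 3 to 20 reads of it, against 180 to 340 in N2, so the size of the fold is imprecise while the groups do not overlap.

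Several decreases were steady over the hours, in miRNAs whose N2 level at 24 and 25 h was within 2-fold of that at 21 and 22 h. miR-70-3p, among the most abundant miRNAs, was at 68188, 60112, 66351, 77849 and 111878 CPM in N2 and at 16877, 22605, 23979.7, 20317 and 24254 CPM in Alg1E (log2 -1.81, SE 0.19, edgeR adjusted p = 0.0002). Its minor arm miR-70-5p was higher (2.04). miR-788-5p was at 4727, 4416, 7256, 5521 and 4447 CPM in N2 and at 1592, 1086, 1018, 1710.0 and 1587 CPM in Alg1E (log2 -1.92, SE 0.235, edgeR adjusted p = 0.000419), with its minor arm miR-788-3p also higher (1.41). miR-5551-5p (-1.60) and miR-248 (-1.54) complete the steady decreases among the 12 largest, together with miR-247-3p and miR-241-5p, described with their neighbours. None of these overlapped between the genotypes.

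Other decreases were in miRNAs that increase during these hours. In N2, 14 of the 237 miRNAs were more than 2-fold higher at 24 and 25 h than at 21 and 22 h. They made up 6 of the 64 miRNAs called lower and 2 of the 80 called higher, a grouping made after the values were seen. For these miRNAs a lower level and a later increase cannot be told apart within 5 hours.

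let-7-5p, which drives the change from larval to adult fates, had the largest difference of those called lower, though not the smallest adjusted p. In N2 it was at 1803, 5045, 20151, 15122 and 17630.4 CPM, with the step up complete by 23 h, and in Alg1E at 445, 502, 1182, 5264 and 10112 CPM. The Alg1E level at 24 h was thus close to the N2 level at 22 h, and the ranges of the 2 genotypes overlapped although Alg1E was lower at each hour (log2 -2.34, SE 0.49, edgeR adjusted p = 0.00496). Without the hour in the fit the difference was -1.77 and not called (edgeR adjusted p = 0.105). In the fit of 3 time windows the difference was -0.50 at 18 to 20 h and -0.21 at 26 to 30 h, and neither was called there.

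The other arm, let-7-3p, gave the 1 trend called within the window in the fit reported. In N2 it was at 219, 449, 554, 285 and 96.1 CPM, highest at 23 h, and in Alg1E at 44.2, 68.7, 466, 1904 and 2989 CPM, highest at 25 h. Within the window Alg1E was thus below N2 up to 23 h and above it afterwards, and the average difference was not called (log2 0.24, SE 1.35, edgeR adjusted p = 0.895). The difference grew by 2.01 log2 units per hour (SE 0.274, edgeR adjusted p = 0.0193), which is 0.422% of 237 miRNAs, and 18 had an unadjusted p under 0.05. It was not called without the libraries of 24 h (edgeR adjusted p = 0.425) or 25 h (edgeR adjusted p = 0.332). The count of trends called ran from 0 to 27 when an hour was left out, and was 4 with straight lines for the hours and 2 with TMM from major arms.

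Before and after these hours the level of let-7-3p in Alg1E lay above that in N2. Scaled over the 26 libraries, it was at 6.86, 8.06 and 32.4 CPM in N2 and at 93.9, 104 and 75.2 CPM in Alg1E at 18, 19 and 20 h, with no overlap. The difference of 2.86 was not called there (edgeR adjusted p = 0.0589), while that of 2.81 at 26 to 30 h was (edgeR adjusted p = 0.0162).

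miR-85-3p increased in both genotypes. It was at 28.3, 84.4, 195, 438 and 1107 CPM in N2 and at 15.1, 28.3, 66.7, 118 and 297 CPM in Alg1E (log2 -1.57, SE 0.222, edgeR adjusted p = 0.000783). Without the hour in the fit it was not called (edgeR adjusted p = 0.117). From 22 h on, the Alg1E level lay near or below the N2 level of the hour before. Its hairpin lies on chromosome II from 8393553 to 8393658 (+ strand), in an intron of F49E12.8 on the opposite strand.

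miR-240-3p and miR-786-3p are the major arms of hairpins that lie side by side on X, from 7882622 to 7882840 (+ strand, intergenic), and miR-786 acts in the intestine in the rhythm of defecation. miR-240-3p was at 45.9, 63.6, 221, 178 and 178 CPM in N2 and at 11.7, 16.8, 32.1, 68.6 and 79.9 CPM in Alg1E (log2 -1.82, SE 0.283, edgeR adjusted p = 0.00124). miR-786-3p was at 132, 223, 608, 563 and 715 CPM in N2 and at 45.3, 68.0, 120.2, 305 and 379.6 CPM in Alg1E (log2 -1.47, SE 0.266, edgeR adjusted p = 0.00257). The latter was not called without the hour in the fit (edgeR adjusted p = 0.0907). Both stepped up at 23 h in N2 and were higher at each successive hour in Alg1E. Both minor arms, miR-240-5p (1.28) and miR-786-5p (0.87), were higher in Alg1E.

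miR-59-3p was at 361, 480.4, 673, 1058 and 4178 CPM in N2 and at 278, 353, 439, 178 and 432 CPM in Alg1E (log2 -1.42, SE 0.5, edgeR adjusted p = 0.0385). The N2 library of 25 h stood far above the other N2 libraries of these hours, and the Alg1E levels stayed between 178 and 439 CPM. Scaled over the 26 libraries, miR-59-3p was at 3425, 5887, 8311, 12801 and 11645 CPM in N2 from 26 to 30 h. In Alg1E it was at 217, 638, 1351, 4448 and 4110 CPM at the same hours. Its call was lost without the libraries of 21, 23 or 24 h and with total counts or TMM from major arms (edgeR adjusted p from 0.0519 to 0.114).

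**Figure D4:**
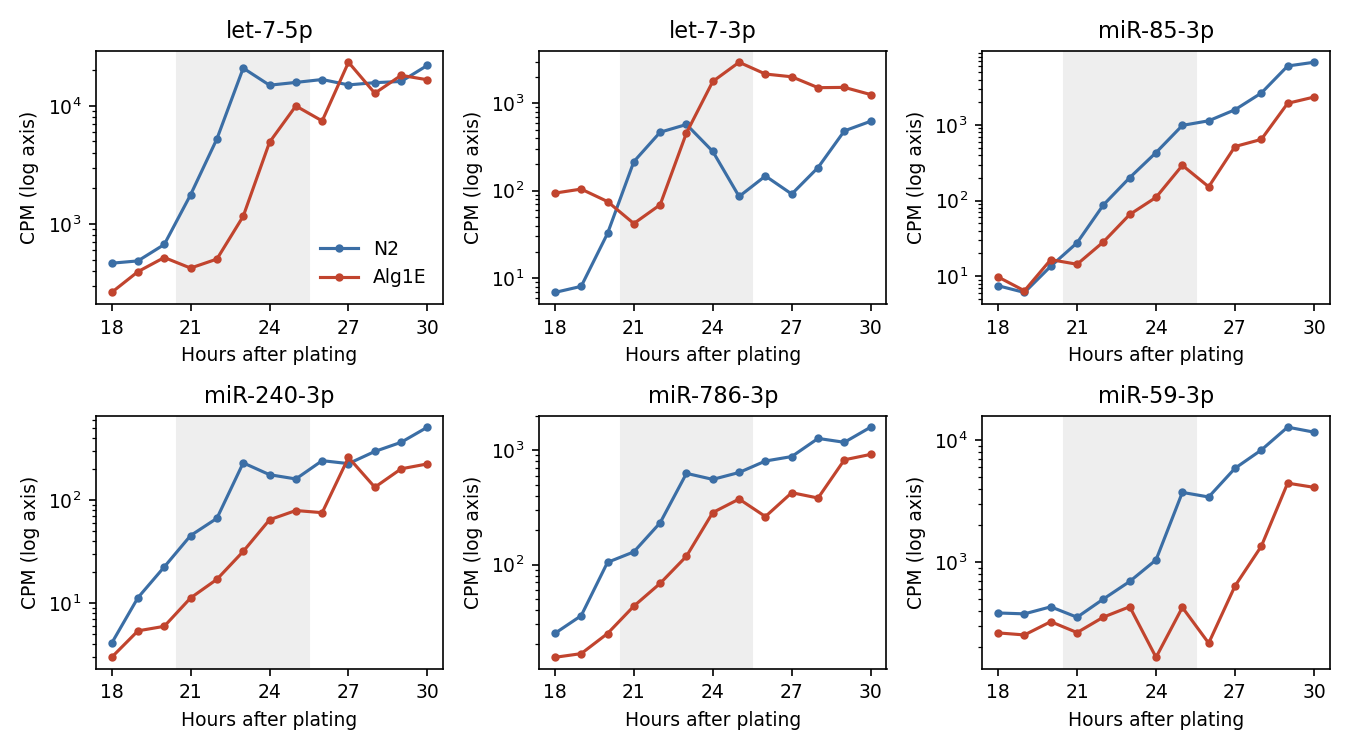
Level (CPM, log axes) of 6 miRNAs in N2 and Alg1E by hour from 18 to 30 h, 1 library per point, with 21 to 25 h shaded; CPM here are scaled over the 26 N2 and Alg1E libraries, so they differ slightly from those in the text. let-7-5p, miR-85-3p, miR-240-3p, miR-786-3p and miR-59-3p lie below N2 in Alg1E within the shaded hours, and let-7-3p lies above N2 at 18 to 20 h, below it from 21 to 23 h and above it again from 24 h.

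Of the 6 miRNAs that act in larval timing, 4 were called lower in Alg1E, where 27% of all miRNAs tested and 45.3% of major arms were lower. All 6 are major arms. Their median difference was -0.70, and with TMM from major arms it was -0.18 and 2 were called. lin-4-5p, which was the earliest miRNA to be described, was at 27259.8, 24453, 35095, 27202 and 35429.5 CPM in N2 and at 20553, 21044, 18335, 19856 and 23795 CPM in Alg1E (log2 -0.52, SE 0.165, edgeR adjusted p = 0.0271), a difference that was 0.01 with TMM from major arms. Its minor arm lin-4-3p was higher (2.11). The call of lin-4-5p was also lost with total counts and without the libraries of 21 or 24 h. miR-237-5p, of the lin-4 family, was lower (log2 -0.89, SE 0.275, edgeR adjusted p = 0.0241) and lost its call with total counts, with TMM from major arms (-0.37) and without the libraries of 22 h.

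miR-48-5p, miR-84-5p and miR-241-5p are relatives of let-7 that act together in the step from the second to later larval stages. miR-241-5p was at 1108, 946, 1163, 1473 and 2152 CPM in N2 and at 261, 479, 475, 328 and 515 CPM in Alg1E (log2 -1.72, SE 0.243, edgeR adjusted p = 0.000783), with no overlap. miR-48-5p was at 10168, 10878, 14860.0, 26671 and 25357 CPM in N2 and at 8510.5, 12608, 14186, 11956 and 16141 CPM in Alg1E, not called (log2 -0.38, SE 0.223, edgeR adjusted p = 0.171) although RLE factors called it (-0.60). The 95% interval of its log2 difference ran from -0.90 to 0.13. miR-84-5p was not called either (-0.16, interval -0.73 to 0.40). In both, Alg1E lay above N2 at 22 h and below it at 24 and 25 h.

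Over the whole let-7 family, 3 of 8 members (37.5%) were lower and 1 higher (median -0.45, and 0.08 with TMM from major arms), a share of decreases no higher than the 45.3% of all major arms. The third lower member was miR-794-5p (-0.78) and the higher one miR-793 (0.87). miR-793 was at 324, 323, 368, 339 and 286 CPM in N2 and at 791, 564, 614, 497 and 557 CPM in Alg1E, with no overlap.

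The mir-35 family, abundant in embryos and needed there, had 5 of 8 members lower with a median of -0.96, against 45.3% and -0.50 for all major arms. The family median was -0.44 with TMM from major arms, where 2 were called. miR-36-3p was at 386, 589, 1061, 793 and 832 CPM in N2 and at 312, 222, 234.6, 241 and 421 CPM in Alg1E (log2 -1.32, SE 0.291, edgeR adjusted p = 0.00569). miR-40-3p was at 63.5, 77.7, 118, 117 and 113 CPM in N2 and at 33.6, 39.7, 28.0, 23.1 and 63.5 CPM in Alg1E (log2 -1.41, SE 0.301, edgeR adjusted p = 0.00524). These kept their call in all 15 settings. miR-38-3p (-0.82) lost it in 4 of the 15, and miR-37-3p (-1.0) and miR-35-3p (-0.92) in 5.

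Of these 5, the gap between the genotypes was widest at 23 or 24 h. miR-39-3p (-0.33, interval -0.88 to 0.21) and miR-42-3p (-0.04, interval -0.43 to 0.34) were not called. miR-41-3p was not called either, and its level swung from 72.5, 222, 142, 112 and 663 CPM in N2 to 145, 167, 200.0, 15.2 and 33.3 CPM in Alg1E (log2 -1.06, SE 0.852, edgeR adjusted p = 0.316). Its Alg1E libraries of 24 and 25 h were the low ones, where the N2 library of 25 h was the highest.

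**Figure D5:**
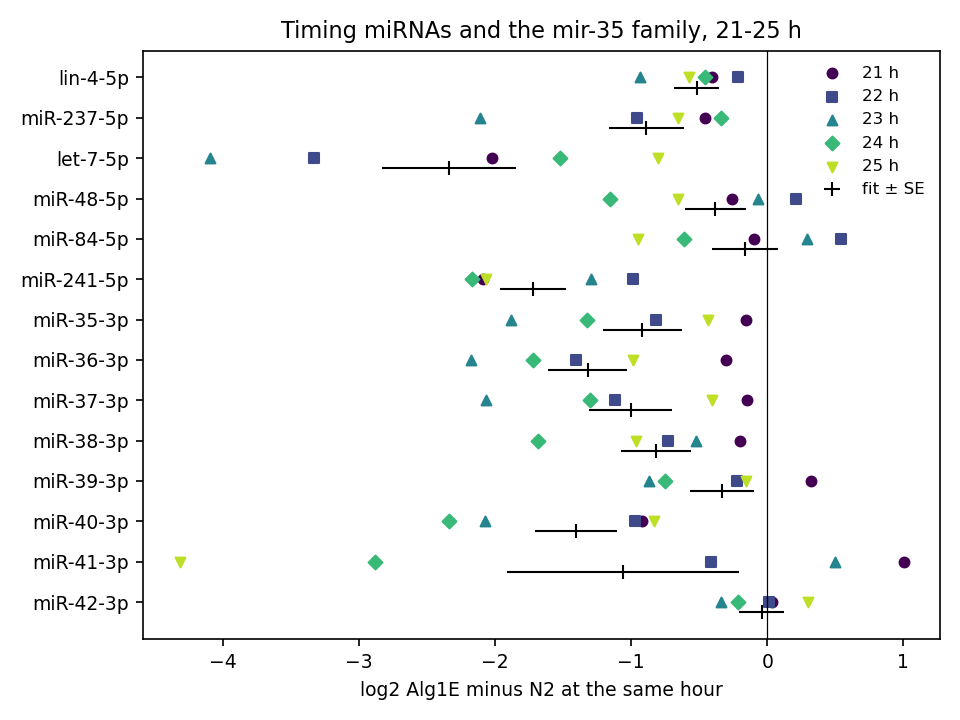
Log2 ratio of Alg1E to N2 CPM at each hour (coloured marks) for 6 timing miRNAs and the 8 mir-35 family members, with the fitted difference and its SE below each row of marks. The miRNAs called lower lie below 0 at every hour, while miR-48-5p, miR-84-5p, miR-39-3p, miR-41-3p and miR-42-3p lie on both sides.

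Among other seed families, which share the bases that pair with targets, abundant members were mostly lower or not called. The counts below stand against 58 of 128 major arms lower (45.3%), with a median of -0.50. The mir-58 family, related to the fly miRNA bantam, had 3 of 4 tested members lower (median -0.67). With TMM from major arms the median was -0.15, and 0 were lower and 1 higher. These were miR-82-3p (-0.91), miR-80-3p (-0.80) and miR-81-3p (-0.54). miR-58a-3p, the member with most reads, was at 92581, 83422, 102042, 105767 and 151247 CPM in N2 and at 96035, 143665, 145821, 96138 and 113268 CPM in Alg1E and was not called (0.16), but was called higher with TMM from major arms (0.68).

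The mir-51 family had 3 of 6 lower (median -0.59, and -0.06 with TMM from major arms, where 0 were called), namely miR-54-3p (-1.19), miR-56-3p (-0.86) and miR-52-5p (-0.59). miR-52-5p lost its call in 4 of the 15 settings, with total counts, with TMM from major arms and without the libraries of 21 or 22 h. miR-81-3p, of the mir-58 family, lost it in 8, namely with those scalings, with the filters at 10 CPM and on N2 reads and without the libraries of 21, 22, 24 or 25 h. The mir-64 family had 3 of 5 lower (median -0.64, and -0.11 with TMM from major arms, where 1 of 5 was called), namely miR-65-5p (-1.24), miR-64-5p (-0.98) and miR-63-3p (-0.64). In the mir-44 family 1 of 4 was lower, miR-247-3p (median -0.33, but 0.19 with TMM from major arms). The ratio of miR-44-3p to miR-45-3p stayed between 2.81 and 2.90 in the 10 libraries, so their separate values are uncertain. None of 3 members of the mir-72 family, 4 of the mir-2 family and 3 of the mir-238 family was called (medians -0.04, -0.13 and -0.02, and 0.48, 0.40 and 0.45 with TMM from major arms).

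The muscle miRNA miR-1-3p was at 72806, 75148, 66697, 80480.4 and 136267 CPM in N2 and at 116638, 136310.0, 140197, 89926 and 112688 CPM in Alg1E and was not called (log2 0.50, SE 0.235, edgeR adjusted p = 0.0993), but total counts and TMM from major arms called it higher (0.74 and 1.02). The intestinal miR-60-3p was not called (-0.40, interval -0.83 to 0.04), and lay above 0 with TMM from major arms (0.13). Of 3 neuron markers 1 was higher, lsy-6-3p, known for making a left taste neuron differ from its right partner, at 64.5, 69.2, 64.1, 66.2 and 61.4 CPM in N2 and 117, 97.0, 90.5, 95.3 and 84.8 CPM in Alg1E (log2 0.57, SE 0.186, edgeR adjusted p = 0.0296). miR-124-3p (-0.17) and miR-791-3p (0.56) were not called. miR-791-3p is a minor arm, and minor arms had a median of 1.5. Its major arm miR-791-5p was not called either (0.11). With RLE factors 0 of the 3 were called and with TMM from major arms 2 were higher, with medians of 0.34 and 1.08 against 0.56 in the fit reported.

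Of 7 miRNAs studied in lifespan, 1 was lower, miR-228-5p (-0.94), against 27% of all miRNAs and 45.3% of major arms. The list median was -0.07, and with TMM from major arms it was 0.45, with 0 lower and 1 higher. miR-71-5p, whose loss shortens life, was not called (0.53). Of 4 miRNAs listed as mirtrons, spliced introns that bypass the Drosha enzyme, 1 was lower. This was miR-1019-5p, at 17.2, 15.4, 13.9, 13.7 and 12.9 CPM in N2 and at 3.02, 4.71, 3.29, 3.64 and 3.55 CPM in Alg1E (log2 -2.0, SE 0.25, edgeR adjusted p = 0.000436), on 4 to 8 reads per Alg1E library. miR-1018 (0.62, not called) counts in this list, though the annotation used here places its hairpin outside genes. The median of the mirtrons was 0.25. It was 0.48 with total counts, where 1 was higher and 1 lower, and 0.77 with TMM from major arms, where 2 were higher and 1 lower.

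Hairpins that lie within 10 kb of each other on one strand did not always give like differences for their major arms. mir-247 and mir-797 lie together on X from 4756971 to 4757197 (+ strand), and miR-247-3p was at 724, 623, 807, 621 and 605 CPM in N2 and at 147, 158, 197, 139 and 124 CPM in Alg1E (log2 -2.15, SE 0.178, edgeR adjusted p = 8.73e-05). The neighbour miR-797-5p was not called (-0.09, interval -0.51 to 0.34). On V, from 14364412 to 14366283 (- strand), miR-241-5p (-1.72) lies beside miR-48-5p (-0.38). The intervals of the members do not overlap in either pair, and the difference between neighbours was not tested.

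In the cluster of 7 hairpins on II that holds mir-35 to mir-41, from 11537608 to 11538404 (+ strand), 5 major arms were lower and 2 were not called. The cluster of mir-42, mir-43 and mir-44, on II from 11889811 to 11890118 (+ strand), had 0 major arms called and its 3 minor arms higher, miR-42-5p (2.29), miR-43-5p (2.03) and miR-44-5p (2.88). On III from 2172452 to 2173206 (+ strand), miR-64-5p and miR-65-5p were lower and miR-229-5p (-0.49) and miR-66-5p (-0.23) were not called. In the mir-54 to mir-56 cluster on X, from 13144691 to 13145094 (- strand), the 3 minor arms were higher, and 2 of the major arms were lower while miR-55-3p (-0.58) was not called.

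The difference between Alg1E and N2 at 21 to 25 h was tested against the differences in the hours before and after, in 1 fit of 26 libraries and 231 miRNAs. Against 18 to 20 h, 1 miRNA was called (0.433%), with 15 at an unadjusted p under 0.05. This was miR-85-3p, with a difference of 0.25 at 18 to 20 h and -1.60 at 21 to 25 h, a change of -1.85 (SE 0.357, edgeR adjusted p = 0.0277). At 26 to 30 h it was -1.94. The call was lost without the libraries of 22, 23, 24 or 25 h, with edgeR adjusted p from 0.0544 to 0.0823. At 18 to 20 h miR-85-3p was still low, from 6.10 to 16.6 CPM in both genotypes.

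Against 26 to 30 h, 0 miRNAs were called by edgeR (0%), with 64 at an unadjusted p under 0.05 and a smallest adjusted p of 0.0911. The count was 3 without the libraries of 24 h and 30 without those of 25 h. The smallest p-values, not called, were those of miR-76-3p (0.12 at 21 to 25 h and -1.50 at 26 to 30 h), miR-1022-5p (-0.93 and 0.25) and let-7-5p (-2.36 and -0.21). In the same fit, the medians for minor arms were 1.48, 1.42 and 1.60 in the 3 windows and those for major arms -0.64, -0.52 and -0.44.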

How the data were processed

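The deposited table holds read counts per miRNA and library, made by the authors. The submitters' processing notes name cutadapt 2.3, Bowtie 1.2.2, SAMtools 1.9, HTSeq and the build ce11. Per the labels, libraries came from the QIAseq miRNA kit. How strand and the kit's molecular identifiers were handled, and with which settings and annotation, is not given in the sources used here. Without collapsing by identifier a PCR copy would be counted as a read. Reads that match more than 1 near-identical miRNA may be split arbitrarily.

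The 5 summary rows were left out of library sizes (no feature 26.2 to 65.4% of reads, ambiguous at most 0.0917%). Of 437 miRNA rows, 59 had no read in the 10 libraries, and edgeR's filterByExpr kept 237. Counts were tested with edgeR 4.0.16 in R 4.3.3 (quasi-likelihood, TMM, hour as a factor plus genotype), two-sided, with Benjamini-Hochberg adjustment over all miRNAs tested. limma 3.58.1 tested log2 arm ratios (prior count 0.5, arms averaging 10 or more reads). The window contrasts used the 26 N2 and Alg1E libraries, and the trend is the interaction of genotype and hour. Intervals cover 95%. The scripts were tested on simulated counts.

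Named miRNAs are the 12 largest increases and decreases among called miRNAs that average 10 CPM or more and differ in one direction at 5 of 5 hours. To these come the timing miRNAs, mir-35 to mir-42, the 5 miRNAs with most reads, the 6 smallest p-values past the threshold for windows and trend (3 if none passed), and the 6 largest increases and each decrease in arm ratio. Members of lists and other arms are given as such. The comparison, its members and the lists were chosen with earlier results of these data known. Alternatives were other scalings, filters and fits, DESeq2 1.42.0 and leaving out each hour. A filter on N2 reads alone was added after the data were seen.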

Additional observations from a re-analysis of the deposited data

Results flagged for a closer look

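Of 94 groups of 5 libraries tested for a single library far from the other 4, 7 had one, against about 1 in 20 by chance. In N2 these were the libraries of 25 h, with the highest level of miR-59-3p (4178 CPM), miR-41-3p (663 CPM) and the muscle miRNA miR-1-3p (about 136300 CPM). For miR-59-3p the N2 level stayed high afterwards, at 3425 CPM at 26 h and 11645 CPM at 30 h, scaled over the 26 libraries. In Alg1E the library of 25 h had the highest level of miR-35-3p (277.0 CPM), miR-39-3p (261.9 CPM) and miR-42-3p (2578 CPM), all of the mir-35 family, and the library of 23 h the lowest of miR-5551-5p (9.055 CPM).

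The difference of miR-85-3p between Alg1E and N2 changed by -1.851 log2 units from 18 to 20 h to 21 to 25 h, past the test's threshold. The difference of let-7-3p grew by 2.007 log2 units per hour, past the threshold too. Reads without a feature, which enter no comparison of miRNAs, averaged 54.8% in Alg1E, above the 34.7% in N2.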

How the results depend on the processing

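The count of called miRNAs was 112 to 152 under 15 alternatives (144 in the fit reported). More arm ratios were called higher than lower under each of 10 alternatives, and the minor arm share was higher in Alg1E under each of 8. A filter on N2 reads outside 21 to 25 h, added after the data were seen, gave 133 called miRNAs, 131 of them shared. Decreases depend on scaling, with 39 called lower with total counts and 23 with TMM from major arms, where lin-4-5p turned to 0.007418. With minor arms set from all 39 libraries, 73 of 93 arm ratios were called higher and 2 lower, against 74 and 1 of 93 in the fit reported. That setting can swap the arms of a hairpin, which reverses the sign of its ratio. Called decreases in arm ratio numbered 0 to 1 when an hour was left out. Leaving out an hour gave 0 to 1 calls for the window contrast with 18 to 20 h, 0 to 30 for that with 26 to 30 h and 0 to 27 for the trend. Trends called numbered 4 with straight lines and 2 with TMM from major arms. The causes were not tested. Libraries of the same hour did not deviate together (correlations 0.29, 0.10, -0.65, 0.17 and -0.13 over 237 miRNAs). With no replicate block, 152 were called, 138 of them shared, and let-7-5p (-1.77), miR-85-3p (-1.81) and miR-786-3p (-1.29) lost their call. With the hours as pairs, the share difference of 6.563 points had an exact sign-flip p of 0.0625, the smallest that 5 pairs allow. DESeq2 called 146, of which 132 were shared. Low depth in Alg1E limits miR-799, miR-1019-5p and miR-5551-5p, with 3 to 33 reads per library there.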

Other observations

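A group of abundant miRNAs, chosen after their values were seen, was highest and lowest at different hours in the 2 genotypes. miR-51-5p, of the mir-51 family, was at 12354, 12099, 18767, 12083 and 6939.6 CPM from 21 to 25 h in N2 and at 13359, 7192, 6843, 15131 and 10395 CPM in Alg1E. It was thus highest in N2 at 23 h, where it was lowest in Alg1E, and its average difference was not called (log2 -0.23). miR-54-3p and miR-56-3p of the same family were also highest in N2 at 23 h and lowest at 25 h, and highest in Alg1E at 24 h. miR-71-5p, a lifespan miRNA, was at 22455, 18049, 12969, 9428 and 18431 CPM in N2 and at 16677, 26157, 27993, 24975 and 18725 CPM in Alg1E. It was lowest at 24 h in N2 and highest at 23 h in Alg1E. miR-62 was at 3532, 3382, 2093, 2453 and 4619 CPM in N2 and at 3661, 5851, 5476, 1437 and 2376 CPM in Alg1E. It was lowest at 23 h and highest at 25 h in N2, and highest at 22 h and lowest at 24 h in Alg1E. With 1 library per genotype and hour, an hourly change and a difference of a single library cannot be told apart.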
